A study of Homo sapiens with 7 samples.

Results

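The genes described here encode secreted signals between cells: colony-stimulating factors, chemokines of the CXC and CC classes, and interleukins. They were taken by name from a table of 13872 genes, as symbols made of CXCL, CCL or CSF and a number, IL and a number with an optional A or B, or LIF, with receptors left out. The rule found 16 genes: CSF1, CSF2, CXCL1, CXCL2, CXCL3, CXCL6, CXCL16, IL8 (now CXCL8), CCL2, CCL5, CCL7, IL7, IL11, IL12A, IL18 and IL32. LIF was not found by the rule, and the remaining family members were not analysed here.

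Total RNA was sequenced from UM-UC-3, an established cell line from a human urothelial carcinoma, grown as clones after a sort for aldehyde dehydrogenase (ALDH) activity with the ALDEFLUOR assay. There were 3 ALDH-high clones (1, 6 and 10), which the submitters treat as stem-like, 3 ALDH-low clones (1, 3 and 8), treated as non-stem-like, and 1 wild-type culture as control. All clones descend from 1 line and each gave 1 library, so n = 3 per group counts clones. Values are deposited CPM (reads of a gene scaled to a common library total), in which 1 read is worth 0.0393 to 0.0410 CPM and a gene with 0 reads could still stand at up to 0.118 to 0.123 CPM, the value of 3 reads (counting error only). Of 19 urothelial and epithelial markers 5 were listed (KRT7, KRT8, KRT18, FOXA1 and PPARG). Of 15 leukocyte markers 1 was listed, CD68, at 84.32 to 130.80 CPM in ALDH-high and 64.36 to 92.88 CPM in ALDH-low clones (limma adjusted p = 0.2), and PTPRC, the defining marker, was not. The part of CD68 in the results was not tested. Of 11 fibroblast and endothelial markers 0 were listed. The column headers name CAGEr, a tool for reads from transcript starts, and the sources used here do not say whether the reads cover whole transcripts or only their starts. In such bulk RNA, fewer cells that make a transcript and less of it per cell cannot be told apart.

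CSF1 and CSF2 drive survival and growth of macrophages and their precursors. CXCL1, CXCL2, CXCL3, CXCL6 and IL8 attract neutrophils through the receptors CXCR1 and CXCR2, and CCL2, CCL5 and CCL7 attract monocytes and T cells. Many of these genes are switched on by the transcription factor NF-κB, often together with AP-1, when cells sense interleukin 1, tumour necrosis factor or bacterial products, and tumour cells of the bladder are a known source of several of them.

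The stretches just before the annotated starts of the chromosome 4 chemokines, IL32 and IL11 are shown because all of them carry an NF-κB-like or an AP-1-like motif while their levels differ in pattern. Each is the 150 bases before the start in the RefSeq promoter table (GRCh38.p14), 5′ to 3′ on the gene's strand. Capitals mark matches on either strand to an NF-κB-like motif, GGNNTTNCC, or to an AP-1-like motif, TGANTCA.
CXCL1 (chr4:73869243-73869392, plus strand): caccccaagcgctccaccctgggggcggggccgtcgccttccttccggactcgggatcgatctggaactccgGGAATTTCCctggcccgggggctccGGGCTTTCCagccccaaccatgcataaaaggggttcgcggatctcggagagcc
CXCL2 (chr4:74099196-74099345, minus strand): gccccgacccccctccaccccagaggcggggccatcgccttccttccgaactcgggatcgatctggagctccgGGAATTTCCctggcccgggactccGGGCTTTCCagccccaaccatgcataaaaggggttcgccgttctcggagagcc
CXCL3 (chr4:74038690-74038839, minus strand): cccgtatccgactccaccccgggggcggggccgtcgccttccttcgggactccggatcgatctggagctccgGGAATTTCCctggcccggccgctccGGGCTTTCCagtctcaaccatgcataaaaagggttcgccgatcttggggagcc
CXCL6 (chr4:73836528-73836677, plus strand): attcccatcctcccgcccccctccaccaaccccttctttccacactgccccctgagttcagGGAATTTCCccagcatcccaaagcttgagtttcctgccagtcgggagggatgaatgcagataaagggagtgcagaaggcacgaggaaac
IL8 (chr4:73740419-73740568, plus strand): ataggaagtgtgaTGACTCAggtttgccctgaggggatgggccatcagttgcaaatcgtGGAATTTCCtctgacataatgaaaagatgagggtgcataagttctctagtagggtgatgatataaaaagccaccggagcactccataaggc
IL32, the first of its 2 annotated starts (chr16:3065253-3065402, plus strand): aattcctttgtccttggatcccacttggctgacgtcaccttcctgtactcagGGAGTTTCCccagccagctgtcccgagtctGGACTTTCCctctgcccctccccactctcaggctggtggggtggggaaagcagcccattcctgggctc
IL11 (chr19:55370464-55370613, minus strand): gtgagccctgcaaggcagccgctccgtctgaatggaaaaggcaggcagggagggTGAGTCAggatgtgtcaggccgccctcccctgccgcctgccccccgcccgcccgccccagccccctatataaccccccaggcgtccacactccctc

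Promoters of 10 of the 16 genes were searched. CSF1, CCL2, CCL5, IL18 and CXCL16 had no entry in the promoter table, and the promoter of IL7 was not looked up. Over the 250 bases before the start, the NF-κB-like motif was found in 6 of the 10, against 15% of all 35116 promoters in the table. The count is by gene and the share by start, and the second start of IL32 had no match. Apart from IL32, the genes with a match were the chromosome 4 chemokines. The upstream sequences of CXCL1, CXCL2 and CXCL3 are much alike, so their matches are not separate finds. The same 9 letters, GGAATTTCC, stood 77 or 78 bases before the start in CXCL2, CXCL1 and CXCL3, 89 bases before it in CXCL6 and 91 bases before it in IL8. CXCL1, CXCL2 and CXCL3 shared a further match, GGGCTTTCC, 53 bases before the start, and IL32 had a pair of its own at 98 and 68 bases. The AP-1-like motif was present in IL8 (TGACTCA), IL11 (TGAGTCA) and CCL7 (TGATTCA), against 6.57% of all promoters. The TATA box, TATAAA, was found in IL8 and CCL7 (10.7% of all promoters), and a C/EBP-like motif, TTNCNNAA, in CXCL2 (33.2%). In a global alignment of these 250 bases, CXCL1 was 81.4% identical to CXCL3 and 70.1% to CXCL2, but 53% identical to CXCL6 and 43.9% to IL8. A match is only a description of the letters.

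Setting ALDH-high against ALDH-low clones addresses which of these signals differ with the enzyme activity used for sorting. CSF1 and IL11 had lower levels in ALDH-high clones without overlap between the groups, for CSF1 by less than the CPM of 1 read. Neither these genes nor any other of the 15 tested passed. The test was limma on log2(CPM + 1) over 12705 genes, with Benjamini-Hochberg adjustment and a threshold of 0.05. It called 170 genes in all (1.34%) and 0 of the 15, whose adjusted p ranged from 0.0933 to 0.779. At an unadjusted p under 0.05 there were 4 of the 15, against 19.7% of all tested genes. edgeR's quasi-likelihood test on recovered reads called 0 of the 15, against 116 of the 12705 genes. DESeq2 called 3 (CSF1, CXCL6 and CXCL16), against 7.90% of all genes. The groups did not overlap for 1 of the 15 that was higher and 3 of the 15 that were lower in ALDH-high clones, against 14.0% and 12.1% of all tested genes, so these counts are near the background. For CXCL6 and CXCL16 the filter fixed this separation, since only the clones of the higher group reached its minimum of 1 CPM. The median change of the 15 was 0.18 log2 units, and that of all tested genes was 0.00. An exact permutation test on 1 gene cannot give less than p = 0.1 with 3 clones against 3.

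**Figure D1:**
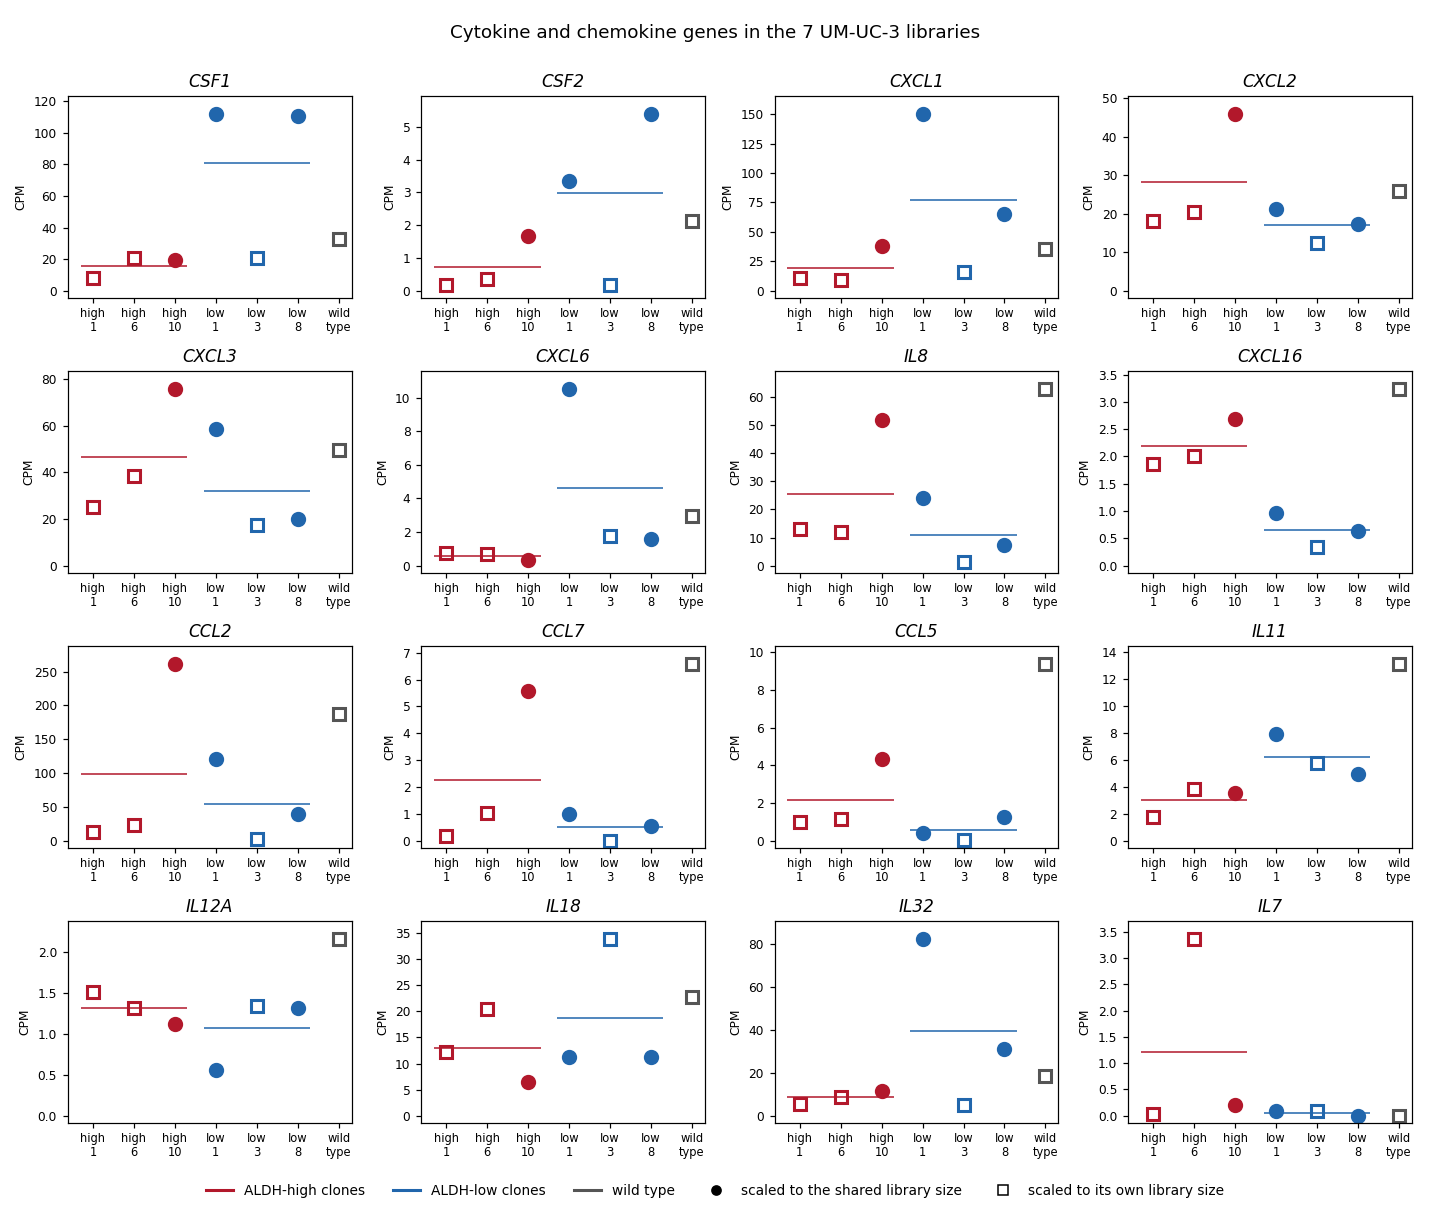
CPM of the 16 genes (vertical axes, linear, each panel with its own range) in the ALDH-high clones 1, 6 and 10, the ALDH-low clones 1, 3 and 8 and the wild type; horizontal lines are group means. Filled circles are the 3 libraries scaled to a shared library size, which stand above the open squares of their own group for genes such as CXCL1, CCL2 and IL8.

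CSF1 (ENSG00000184371, chromosome 1), the growth factor of macrophages, was at 7.79, 20.52 and 19.28 CPM across ALDH-high clones 1, 6 and 10, compared with 112.08, 20.54 and 110.52 CPM across ALDH-low clones 1, 3 and 8. ALDH-low clones 1 and 8 stood apart, while ALDH-low clone 3 was level with ALDH-high clones 6 and 10. The gap between the groups was thus only 0.02 CPM wide, less than the CPM of 1 read. The group means were 15.9 ± 7.02 CPM for ALDH-high and 81.0 ± 52.4 CPM for ALDH-low clones (SD, n = 3 each), a 5.11-fold difference. The change was -2.05 log2 units (SE 0.648, 95% confidence interval -3.54 to -0.56, limma adjusted p = 0.147). Without ALDH-low clone 3 it was -2.84 log2 units with an adjusted p of 0.0278 in limma, and over all alternatives the adjusted p ranged from 0.0278 to 0.354. CSF2, which encodes the granulocyte-macrophage factor, was at 0.16, 0.37 and 1.68 CPM across ALDH-high clones 1, 6 and 10, compared with 3.36, 0.16 and 5.40 CPM across ALDH-low clones 1, 3 and 8. It rests on 55 reads in ALDH-high and 223 reads in ALDH-low clones, the groups overlapped, and the change was -0.98 log2 units (limma adjusted p = 0.427), or -1.70 without ALDH-low clone 3 and -0.47 without ALDH-low clone 8. As for CSF1, the highest levels were in ALDH-low clones 1 and 8.

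Of the 5 neutrophil chemokines of chromosome 4, CXCL1 and CXCL6 had lower means in ALDH-high clones and CXCL2, CXCL3 and IL8 higher ones, and none passed the test. CXCL1 (ENSG00000163739) was at 10.81, 9.19 and 38.28 CPM across ALDH-high clones 1, 6 and 10, compared with 150.28, 15.75 and 65.04 CPM across ALDH-low clones 1, 3 and 8. ALDH-high clone 10 lay above ALDH-low clone 3, so the groups overlapped. The means were 19.4 ± 16.3 CPM for ALDH-high and 77.0 ± 68.1 CPM for ALDH-low clones, with a change of -1.72 log2 units (interval -3.55 to 0.12, limma adjusted p = 0.282). It was -0.99 log2 units without ALDH-low clone 1 and -2.57 log2 units without ALDH-low clone 3.

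CXCL6 (ENSG00000124875) was at 0.76, 0.70 and 0.32 CPM across ALDH-high clones 1, 6 and 10, compared with 10.52, 1.77 and 1.60 CPM across ALDH-low clones 1, 3 and 8. Every ALDH-low clone was above every ALDH-high clone, and ALDH-low clone 1 was far above the rest. The 44 reads in ALDH-high and 348 reads in ALDH-low clones gave means 7.80-fold apart and a change of -1.46 log2 units (SE 0.539, limma adjusted p = 0.192). Without ALDH-low clone 1 the change was -0.76 log2 units (limma adjusted p = 0.254). CXCL6 passed the filter on low values through the ALDH-low clones alone, so its separation and its tests, that of DESeq2 included, are a description.

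CXCL2, CXCL3 and IL8 had higher means in ALDH-high clones, with overlap in each case. CXCL2 (ENSG00000081041) was at 18.12, 20.36 and 45.96 CPM across ALDH-high clones 1, 6 and 10, compared with 21.20, 12.45 and 17.40 CPM across ALDH-low clones 1, 3 and 8 (0.60 log2 units, limma adjusted p = 0.395). CXCL3 (ENSG00000163734) was at 25.27, 38.58 and 75.92 CPM in the ALDH-high clones, against 58.56, 17.36 and 20.16 CPM in the ALDH-low clones, in the same order (0.60 log2 units, limma adjusted p = 0.562). In both genes ALDH-high clone 10 was the highest library of all 7, and without it the change was 0.20 log2 units for CXCL2 and 0.18 log2 units for CXCL3. Each other clone left out, except ALDH-high clone 6, also moved the change of CXCL3 by more than 1.5 times, within 0.28 to 1.13 log2 units. IL8 (ENSG00000169429) was at 12.95, 12.07 and 51.88 CPM across ALDH-high clones 1, 6 and 10, compared with 23.96, 1.37 and 7.24 CPM across ALDH-low clones 1, 3 and 8. The change of IL8, 1.44 log2 units, had an interval of -0.52 to 3.39 (limma adjusted p = 0.395). It was 0.78 log2 units without ALDH-high clone 10, 0.57 without ALDH-low clone 3 and 2.27 without ALDH-low clone 1. ALDH-high clone 10 again led the clones, and ALDH-low clone 3 was the lowest.

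CXCL1, CXCL2 and CXCL3 are close copies of one another. Of all 30-base windows of an annotated transcript in GENCODE 29, 16.2% of those of CXCL1, 20.5% of those of CXCL2 and 9.94% of those of CXCL3 occur unchanged in another of these chemokines, whereas CXCL6, CXCL8, CCL2 and CCL7 had 0%. The sources used here do not say how reads that match several genes were placed, so a share of the reads of these 3 genes is uncertain. If reads come only from transcript starts, windows over the whole transcript do not measure that share.

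CXCL16 (ENSG00000161921, chromosome 17), a membrane-bound chemokine and scavenger receptor, was at 1.87, 2.01 and 2.68 CPM across ALDH-high clones 1, 6 and 10, compared with 0.96, 0.35 and 0.64 CPM across ALDH-low clones 1, 3 and 8. Every ALDH-high clone was above every ALDH-low clone, and the clones within a group were close. The means were 2.19 ± 0.433 CPM for ALDH-high and 0.65 ± 0.305 CPM for ALDH-low clones, from 163 reads in ALDH-high and 49 reads in ALDH-low clones. Its change of 0.96 log2 units (SE 0.236, interval 0.41 to 1.50) had a limma adjusted p of 0.0933. It passed the filter on low values through the ALDH-high clones alone, so its separation and its tests, that of DESeq2 included, are a description.

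The monocyte chemokines had higher means in ALDH-high clones, with wide spread among the clones of each group, and none passed. CCL2 (ENSG00000108691, chromosome 17) was at 12.16, 23.15 and 261.72 CPM across ALDH-high clones 1, 6 and 10, compared with 120.72, 1.73 and 39.36 CPM across ALDH-low clones 1, 3 and 8. The highest clone exceeded the lowest 21.5-fold among ALDH-high and 69.8-fold among ALDH-low clones. The change was 0.88 log2 units with an interval of -2.54 to 4.30 (limma adjusted p = 0.779), and its sign turned when ALDH-high clone 10 was left out, to -0.41 log2 units, or when clone 3 of ALDH-low was, to -0.68. It reached 1.75 log2 units without ALDH-high clone 1 and 2.06 without ALDH-low clone 1.

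CCL7, the neighbour of CCL2 in the RefSeq gene order, was at 0.16, 1.03 and 5.56 CPM across ALDH-high clones 1, 6 and 10, compared with 1.0, 0 and 0.56 CPM across ALDH-low clones 1, 3 and 8 (168 reads in ALDH-high and 39 reads in ALDH-low clones, limma adjusted p = 0.514). CCL5, another chromosome 17 chemokine, was at 0.99, 1.15 and 4.36 CPM in the ALDH-high clones, against 0.40, 0.04 and 1.28 CPM in the ALDH-low clones, in the same order (162 reads in ALDH-high and 43 reads in ALDH-low clones, limma adjusted p = 0.296). Both had their highest clone value in ALDH-high clone 10 and their lowest in ALDH-low clone 3, and the groups overlapped. Without ALDH-high clone 10 the change was 0.07 log2 units for CCL7, against 0.77 with it, and 0.47 for CCL5, against 0.93 with it. CCL7 also moved to 1.32 log2 units without ALDH-high clone 1 and to 0.50 without ALDH-low clone 3.

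Among the interleukins, IL11 (ENSG00000095752, chromosome 19), a cytokine of the interleukin 6 family, was at 1.75, 3.82 and 3.52 CPM across ALDH-high clones 1, 6 and 10, compared with 7.92, 5.74 and 4.96 CPM across ALDH-low clones 1, 3 and 8. The groups did not overlap, and the means were 3.03 ± 1.12 CPM for ALDH-high and 6.21 ± 1.53 CPM for ALDH-low clones. The change was -0.86 log2 units (SE 0.284, interval -1.52 to -0.20, limma adjusted p = 0.159), and it stayed negative under all 19 alternatives that gave a value, with adjusted p from 0.098 to 0.362. IL32 (ENSG00000008517, chromosome 16), a cytokine that induces other inflammatory cytokines, was at 5.40, 8.87 and 11.56 CPM across ALDH-high clones 1, 6 and 10, compared with 82.56, 4.99 and 31.24 CPM across ALDH-low clones 1, 3 and 8. ALDH-low clone 3 was the lowest library of all, so the groups overlapped (-1.45 log2 units, limma adjusted p = 0.375), and without that clone the change was -2.49 log2 units (limma adjusted p = 0.0591). Without ALDH-low clone 1 it was -0.59 log2 units (limma adjusted p = 0.725).

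IL18, a cytokine of the interleukin 1 family released after cleavage by caspase 1, ran the other way across the clones. It was at 12.24, 20.40 and 6.48 CPM across ALDH-high clones 1, 6 and 10, compared with 11.16, 33.94 and 11.32 CPM across ALDH-low clones 1, 3 and 8 (-0.43 log2 units, limma adjusted p = 0.668). ALDH-low clone 3 was its highest library and ALDH-high clone 10 its lowest, and over the 6 fits that each left out 1 clone the change ran from -0.80 to 0.07 log2 units. IL12A, which encodes the p35 subunit of interleukin 12, was at 1.51, 1.31 and 1.12 CPM in the ALDH-high clones, against 0.56, 1.34 and 1.32 CPM in the ALDH-low clones, in the same order (limma adjusted p = 0.724). IL7, a lymphocyte growth factor, was the 1 gene that did not pass the filter. It had 3.37 CPM in ALDH-high clone 6, compared with 0.04 and 0.20 CPM for ALDH-high clones 1 and 10 and at most 0.08 CPM in the ALDH-low clones, so nearly all of its reads came from 1 clone.

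**Figure D2:**
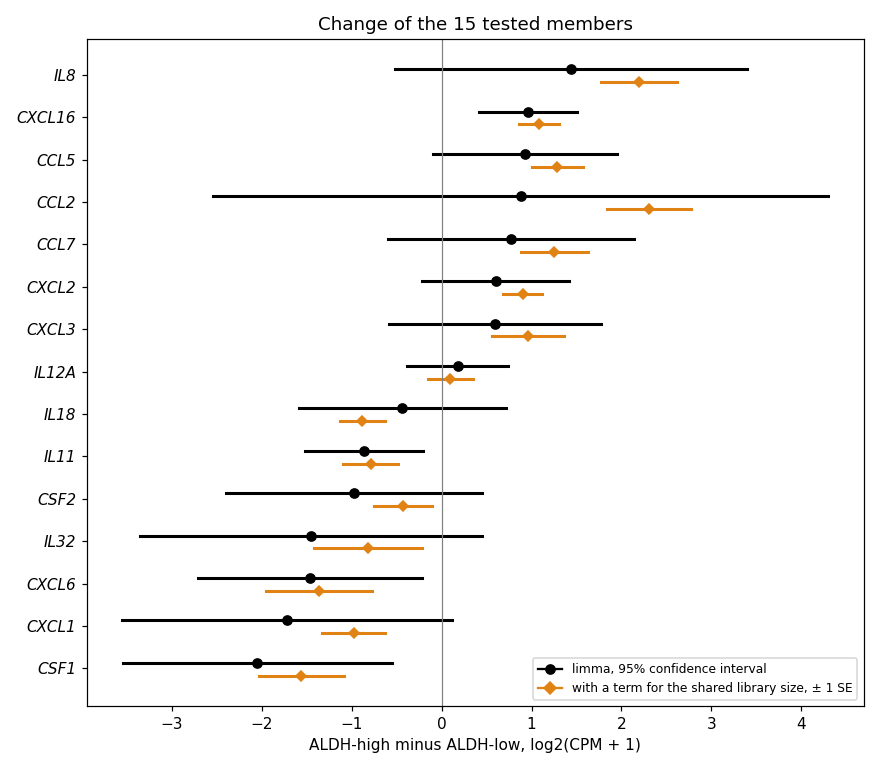
Change between ALDH-high and ALDH-low clones (log2(CPM + 1), horizontal axis) for the 15 tested genes. Black points are limma estimates with 95% confidence intervals, and orange diamonds the same after a term for the shared library size, ± 1 SE; CCL2 stands at 0.88 without and 2.31 log2 units with the term, and CSF1 at -2.05 without and -1.56 log2 units with it.

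These genes varied more within the groups than most. The residual SD of log2(CPM + 1) among clones had a median of 0.87 over the 15 genes, against 0.26 over all tested genes. For 12 of the 15 it lay above the 90th percentile of all tested genes, led by CCL2 at 2.56, IL8 at 1.45 and IL32 at 1.41. CXCL16 and IL12A were the 2 genes below the median of all genes.

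The spread ran alongside a property of the libraries. The library of ALDH-high clone 10, and those of clones 1 and 8 of ALDH-low, had been scaled to the same library size (24999949 or 24999950 reads), whereas the other clones and the wild type each had a size of their own between 24365062 and 25456516 reads. For 10 of the 15 genes these 3 libraries were above the remaining clones within both groups, against 10.9% of all tested genes, and for 2 of the 15, IL18 and IL12A, they were below them in both groups, against 14.3%. The 10 genes were CSF2, CXCL1, CXCL2, CXCL3, CXCL16, IL8, CCL2, CCL5, CCL7 and IL32. For CSF2 the filter fixed this order, since only these 3 of the clone libraries reached its minimum of 1 CPM. The sources used here do not say what the shared size reflects, and its part in these levels was not tested. This division of the libraries was looked at after the values were seen.

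Within the libraries of shared size, ALDH-high clone 10 had more IL8, CXCL2, CXCL3, CCL2, CCL5, CCL7 and CXCL16 than ALDH-low clones 1 and 8. Within the remaining clones, ALDH-high clones 1 and 6 also had more of these 7 than ALDH-low clone 3. All tested genes showed that pattern in 20.3% of cases, and for CXCL16 the filter fixed it, since only ALDH-high clones reached 1 CPM. IL8, for example, stood at 51.88 CPM in ALDH-high clone 10, against 23.96 CPM in ALDH-low clone 1 and 7.24 CPM in ALDH-low clone 8. Among the remaining clones IL8 had 12.95 and 12.07 CPM for ALDH-high clones 1 and 6, compared with 1.37 CPM for ALDH-low clone 3. CSF1, CXCL1, CXCL6, IL11 and IL18 were lower in ALDH-high clones within both classes, against 18.6% of all tested genes. For CXCL6 the filter fixed this order, since only ALDH-low clones reached 1 CPM. For CSF1 the order among the remaining clones rests on 20.52 CPM in ALDH-high clone 6 against 20.54 CPM in ALDH-low clone 3, less than the CPM of 1 read apart. With a term for the shared size in limma, 11 of the 15 genes had an unadjusted p under 0.05, against 17.6% of all tested genes, but none passed the adjusted threshold (adjusted p from 0.07 to 0.875). The term was added after the values were seen and takes up spread that these genes showed along this division. The count, which includes CXCL16, is therefore a description. In that fit CCL2 stood at 2.31 log2 units (SE 0.465, limma adjusted p = 0.0775), and IL8 stood at 2.20 log2 units (SE 0.425, limma adjusted p = 0.07).

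**Figure D3:**
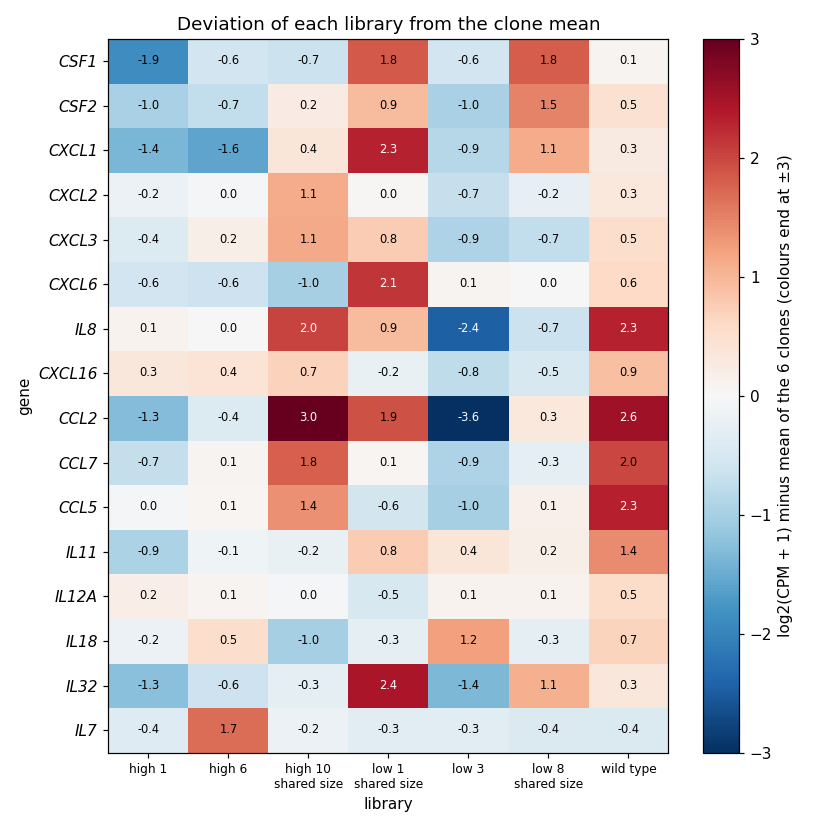
Deviation of log2(CPM + 1) in each library (columns) from the mean of the 6 clones for the 16 genes (rows). Of the 6 clones, ALDH-high clone 10 is highest for 7 of the 15 tested genes, ALDH-low clone 3 is lowest for 8 of the 15 tested genes, and the wild type is above the clone mean for every gene except IL7.

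By clone, ALDH-high clone 10 held the highest ALDH-high value for 10 of the 15 tested genes, although it held it for only 25.3% of all tested genes. ALDH-low clone 3 held the lowest ALDH-low value for 11 of the 15, against 34.8% of all tested genes. ALDH-low clone 1 was the highest of its group for 11 of the 15, against 26% of all tested genes. For CSF2 the filter fixed the places of clones 10 and 3, since among the clones only libraries of shared size reached 1 CPM. For CCL7 it fixed the place of ALDH-low clone 1, which alone in its group reached 1 CPM. The counts partly restate the division by library size, and the genes are not independent of each other, so the counts are a description.

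Over the 7 libraries 11 of the 15 genes fell into 2 patterns, which were drawn after the values were seen and are given as a description without a test. IL8, CCL2, CXCL2, CXCL3, CCL7, CCL5 and CXCL16 correlated with each other with a median Pearson's r of 0.85 over 21 pairs (lowest 0.56, highest 0.93, for IL8 with CCL2). CSF1, CSF2, CXCL1 and IL32 correlated with a median r of 0.88 over 6 pairs (lowest 0.86). Between the patterns the median r was 0.26, from -0.41 to 0.65. CXCL1 thus ran with CSF1 (r = 0.86, Spearman's coefficient 0.71) and IL32 (r = 0.93, Spearman's coefficient 0.82), not with CXCL2 or CXCL3, whose upstream sequence it shares most closely (its median r to the IL8 pattern was 0.27). CXCL6, IL11, IL12A and IL18 were placed in neither, and IL18 had a negative r with all 11 genes of the patterns, down to -0.67 with CXCL2. These points share libraries and scaling, and 3 of the 7 libraries have the same library size.

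**Figure D4:**
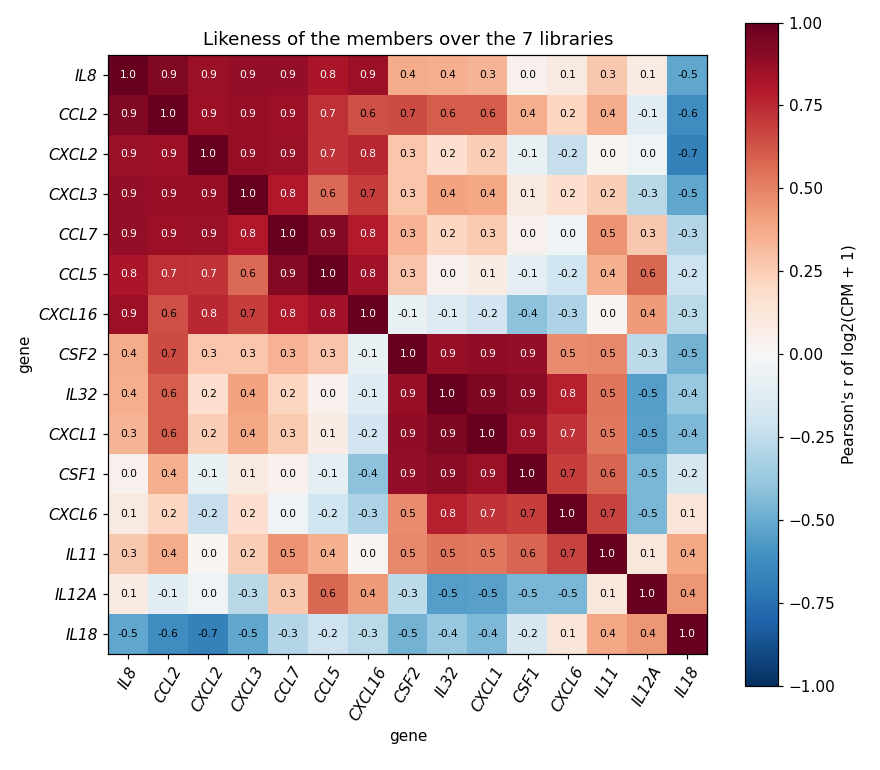
Pearson's r of log2(CPM + 1) over the 7 libraries for each pair of the 15 tested genes (both axes list genes). The upper left square holds IL8, CCL2, CXCL2, CXCL3, CCL7, CCL5 and CXCL16, with r of 0.56 or more, and the middle square CSF2, IL32, CXCL1 and CSF1, with r of 0.86 or more.

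The wild type, with 1 library and hence no test, was above all 6 clones for 6 of the 15 genes, against 22.6% of all tested genes, and below all of them for 0 of the 15, against 25.4%. IL11 was at most at 7.92 CPM in a clone, against 13.15 CPM in the wild type. CCL5 reached 4.36 CPM in a clone, against 9.39 CPM in the wild type. IL8 stood at 51.88 CPM in ALDH-high clone 10, against 62.91 CPM in the wild type, and CCL7 at 5.56 CPM in that clone, against 6.59 CPM in the wild type. The same order held for CXCL16 and IL12A, at 3.24 and 2.16 CPM in the wild type. CSF1 in the wild type (32.69 CPM) lay between the 4 low clones and ALDH-low clones 1 and 8, as did CXCL1 (35.81 CPM) between ALDH-low clones 3 and 8. CCL2 at 187.84 CPM was second to ALDH-high clone 10, and IL7 had 0 reads.

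The genes with the most similar levels over the 7 libraries were sought among those with a mean of at least 5 CPM, as a description. The 3 highest were picked from 9626 or 9627 candidates over only 7 libraries, so a high r here is no test of a link. For CSF1 they were GMIP (r = 0.99), the calcium channel gene CACNA1A (r = 0.98) and RP5-1198O20.4 (r = 0.97). For CXCL1 they were RP11-680F8.1 (r = 0.97), DPYSL2 (r = 0.97) and ZNF217 (r = 0.95). CXCL6 was nearest to PDK1 (r = 0.99), which encodes a kinase that inhibits pyruvate dehydrogenase, CTA-392C11.1 and RP11-645N11.2 (both r = 0.98). PDK1 had 70.40 CPM in ALDH-low clone 1, compared with 24.63 and 24.04 CPM for ALDH-low clones 3 and 8. CTA-392C11.1 had 44.48 CPM in ALDH-low clone 1 and at most 1.81 CPM in the other clones. IL11 was nearest to STC1 (r = 0.96), a secreted glycoprotein gene with at most 18.28 CPM in a clone, against 44.72 CPM in the wild type, NPC2 (r = 0.96) and SDC4 (r = 0.95).

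Of 70 receptor genes 17 were tested, and 1 fell, 0 rose and 16 did not pass (1.34% of all tested genes were called). DESeq2 called 2 of the 17 and edgeR 0, and 3 had an unadjusted limma p under 0.05. Over all 12705 tested genes the shares were 7.90% by DESeq2 and 19.7% by unadjusted p, and edgeR called 116 genes. The median change of the 17 was -0.07 log2 units. CSF1R, the receptor of CSF1, was among the 15 leukocyte markers looked up and was not listed. CXCR1 and CXCR2, through which the neutrophil chemokines act, were not among the 17 tested. The gene that fell was IL10RB, the shared chain of the receptors for interleukins 10 and 22, at 6.04, 5.58 and 4.80 CPM across ALDH-high clones 1, 6 and 10, compared with 12.08, 12.49 and 11.08 CPM across ALDH-low clones 1, 3 and 8. The difference was -0.996 log2 units (SE 0.185), which had an adjusted p of 0.048 in limma, and the call was lost without any 1 of the 6 clones (largest adjusted p 0.183), with edgeR (0.0521) and with the shared-size term (0.069). IL13RA2, a decoy receptor for interleukin 13, was at 726.83, 488.03 and 630.36 CPM across ALDH-high clones 1, 6 and 10, compared with 180.36, 425.20 and 78.88 CPM across ALDH-low clones 1, 3 and 8 (1.73 log2 units, limma adjusted p = 0.134). Every ALDH-high clone was above every ALDH-low clone. IL6R stood at 0.62 ± 0.395 CPM for ALDH-high and 2.16 ± 0.9 CPM for ALDH-low clones (limma adjusted p = 0.149), and CRLF3, a cytokine receptor-like gene, at 53.85 ± 5.28 CPM for ALDH-high and 41.1 ± 7.49 CPM for ALDH-low clones (limma adjusted p = 0.263). IL11 acts through IL11RA and IL6ST, which were both detected in every library. IL11RA was at 5.05 ± 0.664 CPM for ALDH-high and 5.75 ± 2.12 CPM for ALDH-low clones (limma adjusted p = 0.836), and its partner IL6ST at 50.6 ± 20.8 CPM for ALDH-high and 64.7 ± 10.1 CPM for ALDH-low clones (limma adjusted p = 0.495).

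Of 32 tested NF-κB genes limma called 0, edgeR 0 and DESeq2 2 (limma, unadjusted p under 0.05: 5), with a median change of -0.08 log2 units. Over all 12705 tested genes limma called 1.34%, DESeq2 7.90% and edgeR 116 genes, and 19.7% had an unadjusted limma p under 0.05. For 9 of the 32 the libraries of shared size were above the others within both groups, against 10.9% of all tested genes. The same held for 4 of the 17 receptor genes, 2 of the 20 JAK, STAT and SOCS genes and 0 of the 9 other secreted factors. TAB2, an adaptor that activates the kinase TAK1, was at 22.6 ± 8.54 CPM for ALDH-high and 49.1 ± 3.25 CPM for ALDH-low clones (-1.16 log2 units, limma adjusted p = 0.0907). CYLD, a deubiquitinase that restrains NF-κB, was at 29.35 ± 2.31 CPM for ALDH-high and 43.5 ± 8.41 CPM for ALDH-low clones (limma adjusted p = 0.171). NFKBIZ, a nuclear coactivator of inflammatory genes, was at 10.65, 41.17 and 13.60 CPM across ALDH-high clones 1, 6 and 10, compared with 5.84, 10.10 and 6.08 CPM across ALDH-low clones 1, 3 and 8 (limma adjusted p = 0.194). All 3 ALDH-high clones were above all ALDH-low clones, and ALDH-high clone 6 was the highest. BIRC2 stood at 76.4 ± 12.1 CPM for ALDH-high and 56.1 ± 3.48 CPM for ALDH-low clones (limma adjusted p = 0.2).

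Of 20 tested JAK, STAT and SOCS genes limma, edgeR and DESeq2 called 0 each (limma, unadjusted p under 0.05: 2), with a median of -0.05 log2 units. These stand beside the same shares over all tested genes (1.34% by limma, 7.90% by DESeq2, 116 of 12705 genes by edgeR, 19.7% by unadjusted p). STAT3, which carries the signal of the interleukin 6 family, was at 31.83, 32.14 and 30.44 CPM across ALDH-high clones 1, 6 and 10, compared with 60.32, 33.15 and 52.96 CPM across ALDH-low clones 1, 3 and 8 (-0.57 log2 units, limma adjusted p = 0.21). As with CSF1, ALDH-low clone 3 was close to the ALDH-high clones. SOCS5, STAT6 and PIAS1 stood at -0.61, -0.41 and -0.38 log2 units and did not pass. Of 9 other secreted factors limma called 0, edgeR 0 and DESeq2 1 (limma, unadjusted p under 0.05: 1), with a median of -0.34 log2 units, beside those same shares. TGFB1, a growth inhibitor of epithelial cells, was at 51.14, 83.81 and 64.92 CPM across ALDH-high clones 1, 6 and 10, compared with 126.04, 102.57 and 114.36 CPM across ALDH-low clones 1, 3 and 8 (-0.79 log2 units, limma adjusted p = 0.0942), without overlap. VEGFC, KITLG and VEGFB stood at 0.65, 0.78 and -0.50 log2 units and did not pass.

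**Figure D5:**
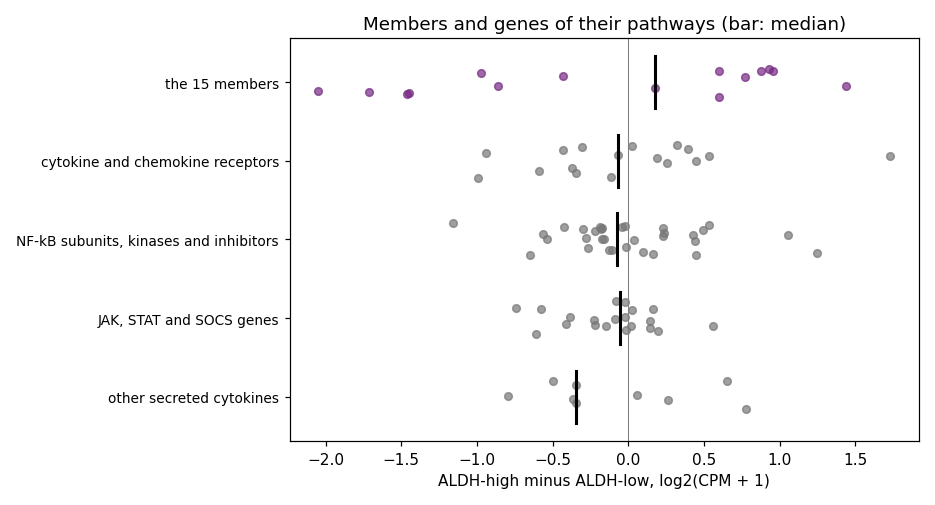
Change between ALDH-high and ALDH-low clones (log2(CPM + 1), horizontal axis) for the 15 tested genes (purple) and for the tested genes of 4 related lists (grey), with the median of each as a bar. The cytokine and chemokine genes spread from -2.05 (CSF1) to 1.44 (IL8), while the medians of the lists lie between -0.34 and -0.05.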

How the data were processed

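The authors deposited 1 table of CPM, rounded to 2 decimals, with 1 column per library. The submitters' processing notes list BWA 0.5.9 and, as builds, hg19 and mm9, giving no role for any. The sources used here do not say how reads were counted per gene. Each gene of the table had at least 0.52 CPM in some library. Within a column the values are multiples of the CPM of 1 read (100% within 0.0051 CPM), from which whole reads were recovered, 24177114 to 25664901 per library over the listed genes. In 4 columns rounding exceeds 0.1 read for part of the values, and 78.7 to 99.8% passed that tolerance over all columns. In all, 1017 genes have the same 7 values as some other gene, and the 16 described here are not among them.

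A gene was tested (12705 were) if 3 or more of the 6 clone libraries reached 1 CPM, with limma 3.58.1 in R 4.3.3 on log2(CPM + 1), lmFit and eBayes with a variance trend, two-sided, ALDH-high minus ALDH-low, Benjamini-Hochberg threshold 0.05. Fold changes on this scale are compressed near 0 CPM. edgeR 4.0.16 and DESeq2 1.42.0 were run on the recovered reads. The code was checked on simulated data. P values set the difference between the groups against the spread between clones, with each gene's spread estimated partly from all tested genes. The genes, lists and tests were chosen with earlier results of these data known. The text names every gene of the rule, the called and the 4 lowest-p genes of each related list, and the 3 nearest genes in pattern to CSF1, CXCL1, CXCL6 and IL11. IL6ST and IL11RA, and the examples taken for the libraries of shared size, were added after the values were seen. Chromosomes and gene order come from the RefSeq gene table, and printed coordinates from the RefSeq promoter table (GRCh38.p14), not the authors' build.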

Additional observations from a re-analysis of the deposited data

How the results depend on the processing

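The 15 genes gave 293 values under 20 alternatives, of which 284 kept their sign and their side of the threshold. The count of 170 called genes became 86 with a filter at 5 CPM, 700 with library weights, 1004 with DESeq2 and 73 with a term for the shared library size (added after seeing the data), and 34 to 173 with a clone left out. Of the 15 genes, library weights called 1 (CXCL16), DESeq2 3, and leaving out a clone 0 to 1 (CSF1 without ALDH-low clone 3). Of the related genes 1 was called, against 0 with a pseudocount of 5, no filter, a filter at 5 CPM, quantile normalization, edgeR or the shared-size term, 4 with library weights, 5 with DESeq2 and 0 to 1 with a clone left out. Signs turned for CCL2, at -0.68 to 2.06 log2 units with a clone left out (-0.41 without ALDH-high clone 10), IL12A, at -0.014 to 0.28 (lowest without ALDH-low clone 1), and IL18, at -0.80 to 0.070 (highest without ALDH-low clone 3). The causes were not tested. No paired analysis was possible because the labels give no pairing between ALDH-high and ALDH-low clones. Genes such as CCL5, CCL7, CSF2 and CXCL6 rest on few reads, which limits the precision of their folds.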
